A study of Mus musculus with 8 samples.

Results

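Mitosis and spindle genes were followed in RNA from mouse colon adenomas and from non-adenoma colon of 2 models. The group holds 45 genes, picked by symbol from the 31189 genes of the deposited count table, and all 45 were found and passed the filter on low counts that left 17218 genes for testing. In the ApcMin/+ model 43 of the 45 were called higher in adenomas than in the non-adenoma section (adjusted p under 0.05 by edgeR). Of all genes tested 10.1% were. The median over all 45 was 3.20-fold, and the count called depended strongly on which adenomas were included. In the model of azoxymethane and dextran sulfate sodium (AOM/DSS) the median was 1.47-fold and none passed the test. There 2.38% of all genes tested were called higher and 2.63% lower. The same method called no gene for the difference between the 2 changes. The ratio of AOM/DSS to ApcMin/+ levels had a median of 0.971 between the adenomas and of 2.11 between the sections.

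The ApcMin/+ group was untreated C57BL/6J mice of 110 to 120 days, heterozygous for the Min allele of Apc, the tumour suppressor that restrains β-catenin. It gave 3 adenomas and 1 non-adenoma section. The AOM/DSS group was wild-type C57BL/6J mice that had 1 injection of AOM, a colon carcinogen, at 6 to 7 weeks of age (10 mg/kg) and then 3 cycles of 2% DSS, which injures the colon lining, in the drinking water. These mice were killed 70 days after AOM and likewise gave 3 adenomas and 1 section, and their adenomas carried stabilising β-catenin mutations by Sanger sequencing, per the labels' protocols. No untreated wild-type colon is among the samples, so each section carries the genotype or the treatment of its own model. Pieces are not tied to individual mice in the labels, and with 1 section a model the spread between sections could not be measured. Each p-value therefore rests on the spread between adenomas, which may in part be technical.

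A cell enters mitosis when cyclin A and cyclin B activate the kinase CDK1, helped by the CDC25 phosphatases. The chromosomes condense, the Aurora and Polo-like kinases build a bipolar spindle, and kinetochores join the centromeres to its microtubules. The spindle checkpoint holds the anaphase-promoting complex until every kinetochore is attached. CDC20 then activates that complex, securin and cyclin B are destroyed, separase cuts cohesin, and kinesins and the central spindle divide the cell. Many of these genes are transcribed together late in the cell cycle, through the MuvB core with B-MYB (Mybl2) and FOXM1, and in colon the dividing cells sit in the lower crypt.

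Promoters of such genes are known for a cell-cycle homology region (CHR), TTTGAA or TTCGAA, and for CCAAT boxes. Promoter windows of 300 bases (250 before the transcription start and 50 after it) were in the RefSeq table (GRCm38.p6) for 37 of the 45 genes. A CHR on either strand was in 25 of the 37 (67.6%), against 21.7% of all 27025 genes of that table and 50.6% of 77 other mitosis genes with a window. Within 50 bases of the start the shares were 62.2% for the 37 genes, 35.1% for the 77 other mitosis genes and 6.12% for all genes. CCAAT was in 27 of the 37 (73.0%), against 58.4% of the 77 other mitosis genes and 41.1% of all genes. Both elements were held by 22 of the 37 (59.5%), against 33.8% of the 77 and 8.61% of all genes. A match is only a match of letters, and the elements were not tested for binding.

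The windows of 5 genes are shown for their contrast in elements and in response. Cdk1, Cdc20 and Aurka hold a CHR beside 2 or 3 CCAAT boxes and rose in ApcMin/+ adenomas. Mybl2 had the highest fold change of the 45 and Pttg1 was the one gene that fell, and neither window holds an exact match to either element. Capitals mark the CHR and CCAAT elements on either strand; CCAAT on the opposite strand reads ATTGG. The sequences are written 5′ to 3′ on the strand of the gene, and the coordinates belong to GRCm38.p6, not to the build of the counts.

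Cdk1, chr10:69352863-69353162, minus strand: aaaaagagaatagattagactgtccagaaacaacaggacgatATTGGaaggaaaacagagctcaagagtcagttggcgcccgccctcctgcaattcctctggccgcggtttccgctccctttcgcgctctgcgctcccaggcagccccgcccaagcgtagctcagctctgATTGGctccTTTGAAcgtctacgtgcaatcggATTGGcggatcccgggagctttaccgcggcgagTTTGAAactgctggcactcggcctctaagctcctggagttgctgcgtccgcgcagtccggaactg
Cdc20, chr4:118437294-118437593, minus strand: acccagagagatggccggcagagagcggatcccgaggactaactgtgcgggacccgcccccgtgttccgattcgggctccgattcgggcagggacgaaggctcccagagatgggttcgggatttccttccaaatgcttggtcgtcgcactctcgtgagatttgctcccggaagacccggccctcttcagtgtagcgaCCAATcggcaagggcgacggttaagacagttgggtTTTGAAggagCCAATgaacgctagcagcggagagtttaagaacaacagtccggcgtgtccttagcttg
Aurka, chr2:172370521-172370820, minus strand: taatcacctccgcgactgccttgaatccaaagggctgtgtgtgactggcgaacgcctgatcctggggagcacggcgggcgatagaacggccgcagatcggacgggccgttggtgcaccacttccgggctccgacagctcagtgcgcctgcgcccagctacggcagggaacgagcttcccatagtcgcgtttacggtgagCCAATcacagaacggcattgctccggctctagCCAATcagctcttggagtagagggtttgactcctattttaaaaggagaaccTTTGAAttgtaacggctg
Mybl2, chr2:163054385-163054684, plus strand: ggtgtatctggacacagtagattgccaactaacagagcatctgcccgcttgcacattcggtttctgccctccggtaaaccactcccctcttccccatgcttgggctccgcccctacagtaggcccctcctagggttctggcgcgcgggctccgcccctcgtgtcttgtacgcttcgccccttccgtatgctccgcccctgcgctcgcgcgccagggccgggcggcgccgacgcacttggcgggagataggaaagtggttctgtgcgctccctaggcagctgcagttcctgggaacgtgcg
Pttg1, chr11:43425932-43426231, minus strand: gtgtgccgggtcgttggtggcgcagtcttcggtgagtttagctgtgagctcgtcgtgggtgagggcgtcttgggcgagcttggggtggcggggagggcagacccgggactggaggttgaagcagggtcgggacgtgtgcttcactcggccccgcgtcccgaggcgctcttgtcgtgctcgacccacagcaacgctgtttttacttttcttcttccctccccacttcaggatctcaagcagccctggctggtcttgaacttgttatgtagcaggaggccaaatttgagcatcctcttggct

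Over the 37 genes, the 25 with a CHR had a median log2 fold change of 1.72 in ApcMin/+ adenomas (range 0.77 to 2.29). The 12 without one in the window had a median of 1.48 and a wider range, −0.86 to 2.67. For CCAAT the order was reversed, with a median of 1.59 for the 27 genes with it and 1.70 for the 10 without. These differences were not tested. Neither element was held by 7 genes, Birc5, Mad2l1, Melk, Mybl2, Nuf2, Plk4 and Pttg1. Pairs of CCAAT boxes 30 to 35 bases apart, a spacing chosen after the sequences were seen, were held by 8 of the 37 genes (21.6%). Such pairs were held by 7.79% of the 77 other mitosis genes and 1.85% of all genes of the promoter table.

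Levels between genes were compared as fragments per kilobase, scaled to library size (FPKM). Top2a, the topoisomerase that untangles sister chromatids, had the highest mean over the 8 libraries at 148 FPKM. Ube2c followed at 81.6, Cdc20 at 72.1 and Cenpa at 64.9 FPKM. Plk4, the kinase that licenses centriole duplication, was the lowest at 3.64 FPKM. CPM values (counts scaled to library size by TMM) are used below for comparisons of 1 gene between libraries. Library totals ran from 18156741 to 22719895 counts, and the lowest count of any of the 45 genes in any library was 50. The table also lists the pseudogenes Ccnb2-ps (2 to 21 counts a library, against at least 366 for Ccnb2), Kif4-ps and Plk-ps1 (both listed at 0). How reads that match both a gene and its copy were assigned is not known.

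**Figure D1:**
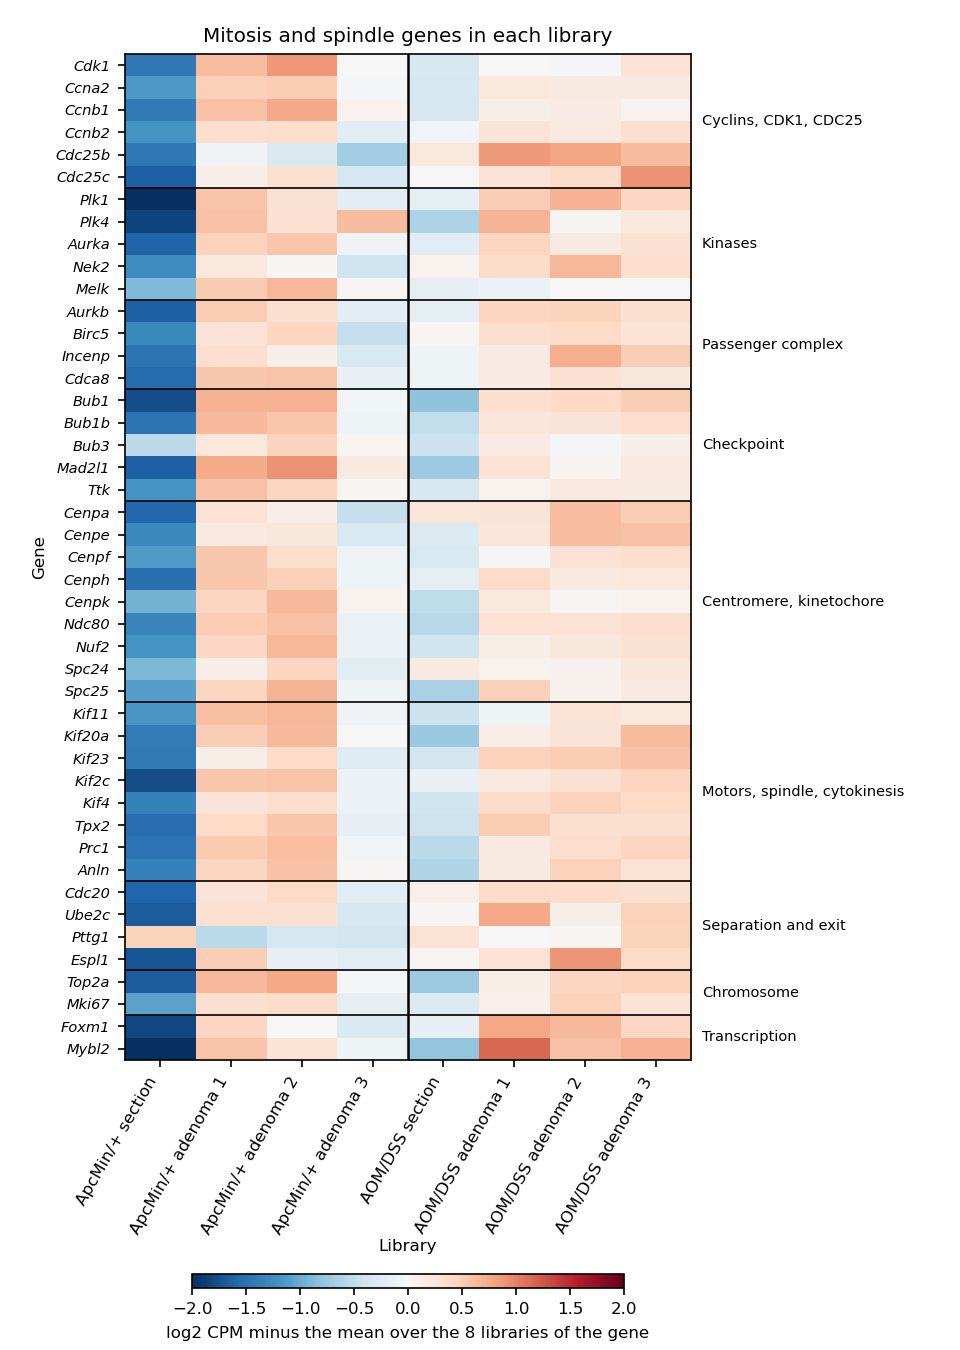
Log2 CPM of each of the 45 genes (rows, grouped by role) in each of the 8 libraries (columns), minus the mean of that gene over the 8 libraries. The ApcMin/+ section is the lowest library in every row but that of Pttg1, and ApcMin/+ adenoma 3 is paler than adenomas 1 and 2 in most rows.

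The first comparison asked how adenoma differed from non-adenoma colon within the ApcMin/+ model. With edgeR's quasi-likelihood test and Benjamini-Hochberg adjustment over 17218 genes, 43 of the 45 were higher in adenomas, where 10.1% of all genes tested were. One gene, Pttg1, was lower, where 6.35% of all genes tested were, and Spc24 did not pass. The median log2 fold change was 1.68 for the 45 genes and 0.03 for all genes tested. All 3 adenomas lay above the section for 44 of the 45 genes, a pattern held by 41.3% of all genes tested. The count called higher depended on which adenoma was left out. It was 4 without ApcMin/+ adenoma 1, 6 without ApcMin/+ adenoma 2, 44 without ApcMin/+ adenoma 3, and 28 without AOM/DSS adenoma 3, which enters through the shared estimate of spread. Over all genes tested the count called higher moved as well. It was 339, 319, 2179 and 1074 in those runs, against 1731 with all 8 libraries. The median of the 45 genes stayed between 1.55 and 1.87. With the 4 libraries of the model alone, 8 of the 45 were called higher at a median of 1.67, as were 747 of the 16345 genes tested.

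Among the genes of mitotic entry, all 6 rose in ApcMin/+ adenomas (median log2 fold change 1.58). Cdk1, the mitotic kinase itself, was at 25.2 CPM in the ApcMin/+ section, at 103, 124 and 67.4 CPM in the 3 ApcMin/+ adenomas, at 54.1 CPM in the AOM/DSS section and at 68.1, 66.4 and 81.9 CPM in the adenomas of that model. Every adenoma was above both sections, and the ApcMin/+ section was the lowest library. Its log2 fold change in ApcMin/+ adenomas was 1.96 ± 0.36 (SE; adjusted p = 0.0244). Ccnb1, cyclin B1, had 19.5 CPM in the ApcMin/+ section and 77.5, 87.5 and 54.3 CPM in the adenomas, a change of 1.91 ± 0.29 (adjusted p = 0.0171). In the AOM/DSS model Ccnb1 had 41.1 CPM in the section and 56.2, 57.8 and 54.5 CPM in adenomas. Ccna2, cyclin A2, which acts from S phase into early mitosis, had the highest FPKM of the 6 and rose by 1.49 ± 0.25 (adjusted p = 0.0203). Ccnb2, cyclin B2, rose by 1.37 ± 0.26 (adjusted p = 0.0265), and the phosphatases Cdc25b and Cdc25c by 1.10 and 1.67.

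All 5 kinases of this group rose in ApcMin/+ adenomas (median 1.94). Plk1, the Polo-like kinase of centrosomes and kinetochores, was at 9.69 CPM in the ApcMin/+ section and at 59.0, 49.5 and 34.1 CPM in the adenomas, with 34.8 CPM in the AOM/DSS section and 55.8, 64.6 and 53.1 CPM in its adenomas. Even the lowest ApcMin/+ adenoma stood far above its section, and the AOM/DSS section was level with that adenoma. The log2 fold change of Plk1 was 2.29 ± 0.35 (adjusted p = 0.0169) and that of Plk4 was 2.36 ± 0.36 (adjusted p = 0.0169). Nek2, a centrosome kinase, and Melk had the smallest changes of the 5, at 1.23 and 1.32. The rise of Nek2 was less clear on FPKM, where limma did not call it. It had 10.9 FPKM in the ApcMin/+ section and 18.5, 24.3 and 7.64 FPKM in the adenomas, so adenoma 3 lay below the section. Aurka, the spindle-pole Aurora kinase, rose by 1.94.

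The chromosomal passenger complex corrects wrong attachments at centromeres and later works at the midzone. All 4 subunits rose in ApcMin/+ adenomas (median 1.70). Aurkb, its kinase, had 8.94 CPM in the section and 39.2, 34.6 and 23.8 CPM in the ApcMin/+ adenomas, a change of 1.86 ± 0.31 (adjusted p = 0.0206). Birc5, survivin, had 18.6 CPM in the section and 55.2, 61.6 and 33.1 CPM in the adenomas, a change of 1.42 ± 0.35 (adjusted p = 0.0418). Cdca8, borealin, rose by 1.90 and Incenp, the scaffold, by 1.53. In the AOM/DSS model Birc5 was at 47.0 CPM in the section and at 58.2, 59.2 and 55.3 CPM in the adenomas, so the adenomas were above the section by less than the gap seen in ApcMin/+.

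All 5 spindle checkpoint genes rose in ApcMin/+ adenomas (median 1.86). Bub1, the kinase that recruits checkpoint proteins to kinetochores, was at 7.39 CPM in the ApcMin/+ section and at 41.0, 40.9 and 24.3 CPM in its adenomas, against 14.5 CPM in the AOM/DSS section and 31.9, 33.3 and 35.3 CPM in the adenomas of that model. All 6 adenomas were well clear of both sections. Its change was 2.26 ± 0.36 in ApcMin/+ adenomas (adjusted p = 0.0189). Mad2l1, which inhibits CDC20, rose by 2.27 ± 0.32 and had the lowest adjusted p of the 45 genes in this comparison (0.0145). Bub3, a partner of BUB1 and BUBR1 with the highest FPKM of the 5, rose least, by 0.77 ± 0.20 (adjusted p = 0.0461).

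Of 9 centromere and kinetochore genes 8 rose in ApcMin/+ adenomas (median 1.47). Cenpa, the histone H3 variant of centromeres, had 13.8 CPM in the ApcMin/+ section and 49.1, 44.8 and 29.6 CPM in the adenomas, a change of 1.58 ± 0.33 (adjusted p = 0.0305). In the AOM/DSS model it was already at 48.2 CPM in the section, with 48.5, 62.7 and 57.8 CPM in the adenomas. Ndc80, which binds microtubules, rose by 1.68 ± 0.34 (adjusted p = 0.0293), and its complex partners Nuf2 and Spc25 by 1.54 and 1.47. Spc24, the remaining subunit of that complex, had 9.23 CPM in the section and 18.7, 23.2 and 14.6 CPM in ApcMin/+ adenomas. Its value of 1.03 ± 0.30 missed the threshold (adjusted p = 0.0581).

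Motor, spindle and cytokinesis genes rose in 8 of 8 cases in ApcMin/+ adenomas (median 1.76). Prc1, which bundles midzone microtubules, was at 23 CPM in the ApcMin/+ section and at 91.7, 97.1 and 61.8 CPM in its adenomas, against 44.1 CPM in the AOM/DSS section and 72.7, 81.5 and 86.3 CPM in the adenomas of that model. The adenomas of both models overlapped and all lay above both sections. The change of Prc1 was 1.86 ± 0.30 (adjusted p = 0.0189). Kif2c, the kinesin that depolymerises microtubules at centromeres, had the largest change of the 8 at 2.14 ± 0.35 (adjusted p = 0.0193). Kif20a, a kinesin of cytokinesis, rose by 1.80, and Kif11, which pushes spindle poles apart, by 1.59.

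Separation and exit genes split. Cdc20, the activator of the anaphase-promoting complex, was at 14 CPM in the ApcMin/+ section and at 50.9, 55.2 and 36.0 CPM in the adenomas, with 45.4 CPM in the AOM/DSS section and 54.9, 54.5 and 52.5 CPM in its adenomas. It rose by 1.75 ± 0.27 in ApcMin/+ adenomas (adjusted p = 0.0180), and the AOM/DSS section lay within the range of the ApcMin/+ adenomas. Ube2c, the ubiquitin-conjugating enzyme of that complex, and Espl1, separase, rose by 1.79 and 1.81. Pttg1, securin, which keeps separase inactive, went the other way: 34.1 CPM in the ApcMin/+ section and 17.2, 19.7 and 19.4 CPM in its adenomas, 30.6 CPM in the AOM/DSS section and 25.1, 25.7 and 34.0 CPM in those adenomas. All 3 ApcMin/+ adenomas were below every other library (40.0% of all genes tested had them all below the section), and Pttg1 fell by 0.86 ± 0.22 on the log2 scale (adjusted p = 0.0440). That call sat at the threshold: on FPKM with limma the value was −0.54 (adjusted p = 0.107), and its adjusted p was 0.112 with ApcMin/+ adenoma 1 left out, 0.0939 with ApcMin/+ adenoma 2 left out and 0.0576 with AOM/DSS adenoma 1 left out.

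Top2a and Mki67, the gene of the Ki-67 antigen that coats mitotic chromosomes, both rose in ApcMin/+ adenomas. Top2a was at 68.3 CPM in the ApcMin/+ section and at 338, 369 and 213 CPM in its adenomas, against 131 CPM in the AOM/DSS section and 234, 292 and 298 CPM in the adenomas of that model. Its change was 2.17 ± 0.36 (adjusted p = 0.0204). Mki67 had 98.0 CPM in the ApcMin/+ section and 258, 266 and 181 CPM in the adenomas, a change of 1.26 ± 0.28 (adjusted p = 0.0328).

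Both transcription factors rose in ApcMin/+ adenomas. Mybl2, which encodes B-MYB, was at 3.67 CPM in the ApcMin/+ section and at 28.6, 23.2 and 18.3 CPM in its adenomas, against 11.2 CPM in the AOM/DSS section and 42.7, 29.0 and 31.3 CPM in the adenomas of that model. Its 2.67 ± 0.39 (6.36-fold, adjusted p = 0.0155) was the largest change of the 45 genes. Foxm1 had 7.62 CPM in the ApcMin/+ section and 36.5, 26.8 and 22.2 CPM in the adenomas, a change of 1.90 ± 0.34 (adjusted p = 0.0225). In the AOM/DSS model Foxm1 was at 24.2 CPM in the section and at 46.4, 42.6 and 36.2 CPM in the adenomas.

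The same comparison in the AOM/DSS model gave smaller values. None of the 45 genes passed, where 2.38% of all genes tested were higher and 2.63% lower by edgeR. Unadjusted p was under 0.05 for 17 of the 45 genes and for 5142 of the 17218 genes tested. DESeq2 called 8 of the 45 higher, and 1438 of all genes tested. Limma called 1 of the 45 higher, and 442 or 357 of all genes tested by pseudocount. The median log2 fold change was 0.56, against 0.14 for all genes tested, and 43 of the 45 values were above 0. All 3 adenomas lay above the section for 43 genes, the exceptions being Spc24 and Pttg1, and 41.2% of all genes tested did so. Without ApcMin/+ adenoma 3, which enters through the shared spread, 11 of the 45 genes passed at a median of 0.56. In that run 800 of 17154 genes tested were called higher and 1255 lower.

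Mybl2 came nearest to a call in the AOM/DSS model, at 1.62 ± 0.35 (3.08-fold, adjusted p = 0.0512). The next largest values were 1.21 ± 0.33 for Bub1 (adjusted p = 0.0749), 1.11 ± 0.32 for Kif20a (adjusted p = 0.0822) and 1.07 ± 0.34 for Top2a (adjusted p = 0.0980). By role, the median was highest for the 2 transcription factors (1.2) and for the 8 motor, spindle and cytokinesis genes (0.84). It was lowest for the 4 separation and exit genes (0.35). Spc24 was at 19.5 CPM in the section and at 18, 18.2 and 20.1 CPM in the adenomas, a value of −0.05 ± 0.28 (adjusted p = 0.920). Pttg1 had −0.11 ± 0.23 (adjusted p = 0.765).

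**Figure D2:**
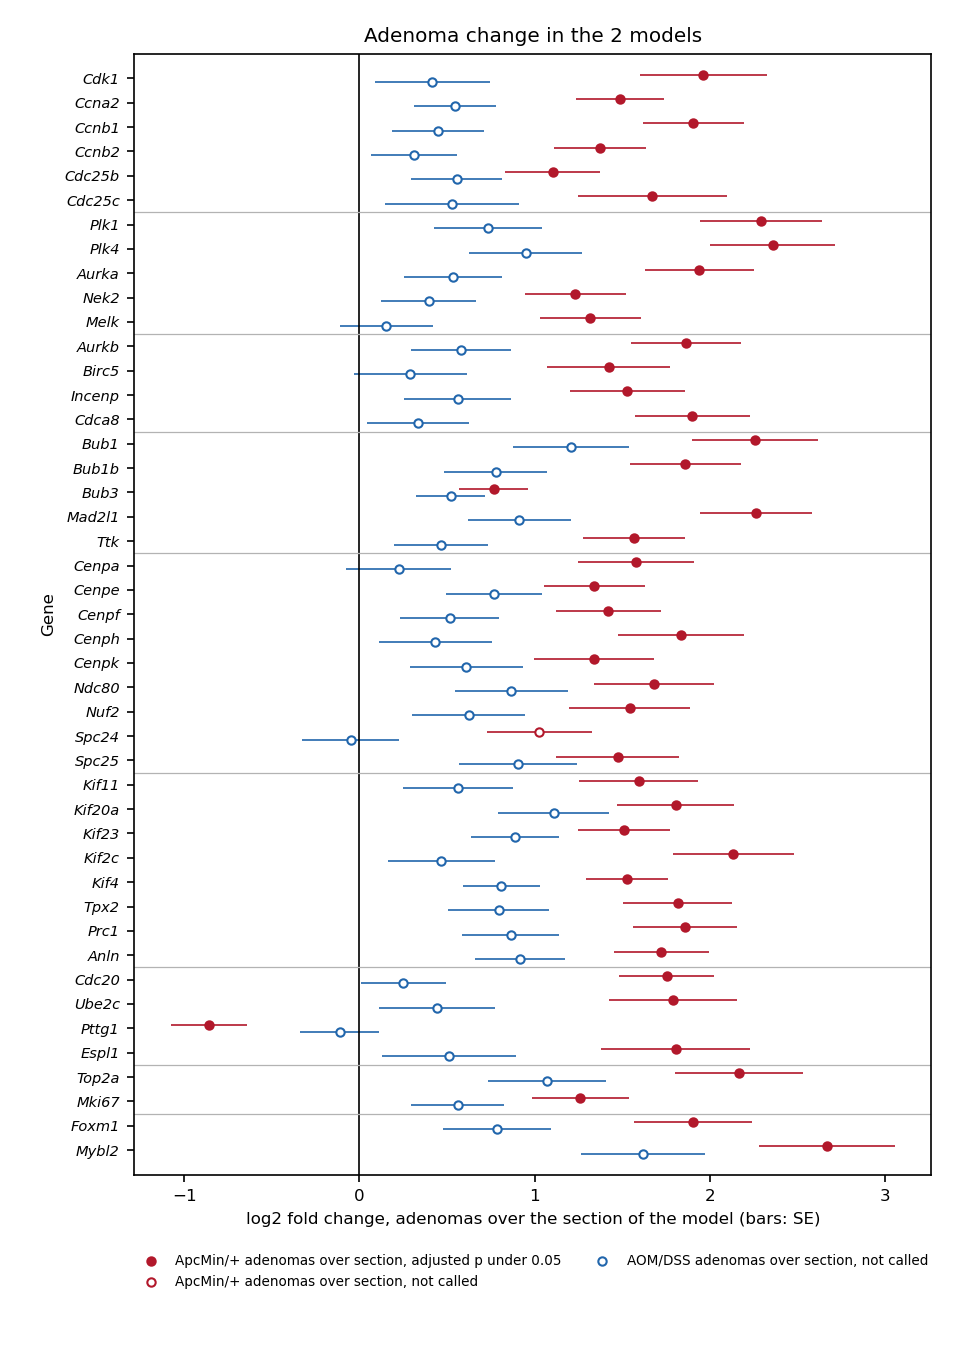
Log2 fold change of adenoma over section (x axis) for each of the 45 genes (y axis) in each model, with bars of 1 SE. ApcMin/+ values lie to the right of AOM/DSS values for every gene except Pttg1.

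Whether the 2 changes differ was tested as an interaction. The change in AOM/DSS was the smaller one for 44 of the 45 genes, with a median difference of −1.06 on the log2 scale against 0.01 for all genes tested. edgeR called 0 of the 17218 genes here, 0% in either direction, and the lowest adjusted p over all genes was 0.112. Unadjusted p was under 0.05 for 25 of the 45 genes and for 1369 of all genes tested, while DESeq2 called 180 genes, 1 of the 45 among them as lower, and limma called 6 or 9 genes by pseudocount, none of the 45. The 5 genes with the smallest p were Cdc20 (−1.5 ± 0.35), Ccnb1 (−1.46 ± 0.37), Kif2c (−1.67 ± 0.43), Cdca8 (−1.57 ± 0.41) and Plk1 (−1.56 ± 0.43), with adjusted p from 0.423 to 0.532. The difference in adenoma change was thus not established for any single gene by edgeR. Both arms of this difference include 1 section each.

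The 2 sections were set side by side with no test, since there was 1 of each. The AOM/DSS section was above the ApcMin/+ section for 44 of the 45 genes, where 47.5% of all genes tested were above, and at least 1.5-fold above for 41, where 20.1% of all genes tested were. The ratio ran from 0.896 for Pttg1 to 3.59 for Plk1, with a median of 2.11 against 0.969 for all genes tested. For Plk1 the counts were 169 and 695, and the 95% exact interval of the ratio, which covers counting error only, was 3.03 to 4.27. Cenpa followed at 3.51, Espl1 at 3.41, Ube2c at 3.24 and Cdc20 at 3.23. Bub3 (1.06) and Cenpk (1.35) had intervals that reached below 1, as did Pttg1. Model, mouse and piece of tissue cannot be told apart in this contrast.

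**Figure D3:**
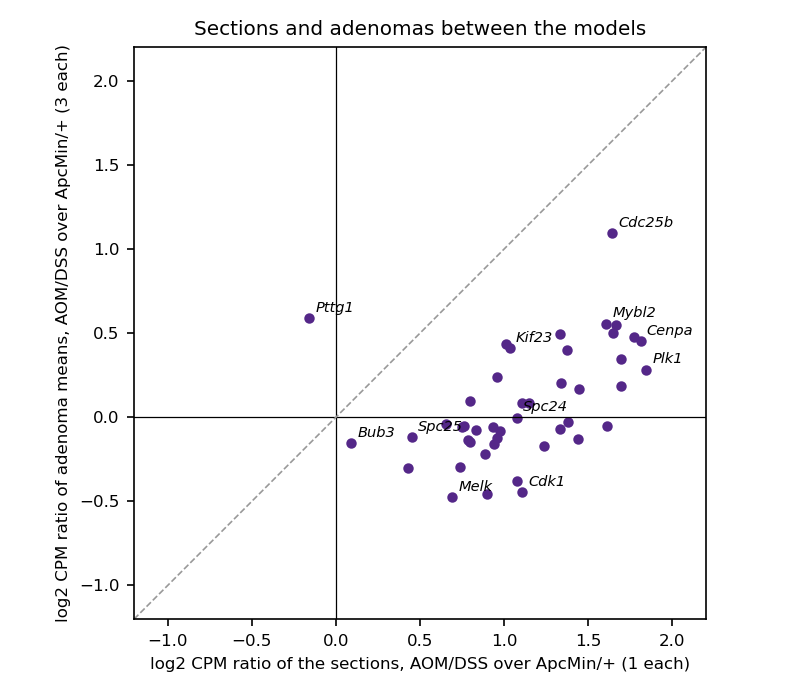
Each point is 1 of the 45 genes, with the log2 CPM ratio of AOM/DSS over ApcMin/+ in the sections on the x axis (1 library each) and in the adenoma means on the y axis (3 libraries each); the dashed line marks equal ratios. Points lie to the right of 0 for all genes but Pttg1 and scatter around 0 on the y axis, with Cdc25b highest.

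The adenomas of the 2 models were compared with 3 libraries each. Cdc25b and Pttg1 were higher in AOM/DSS adenomas, 2 of 45 genes against 10.2% of all genes tested, and none was lower, against 7.90%. The median log2 difference was −0.04. Cdc25b, the phosphatase that starts CDK1 activation at the centrosome, was at 34.7, 29.8 and 22.3 CPM in ApcMin/+ adenomas and at 65.8, 63.1 and 56.3 CPM in AOM/DSS adenomas, with 13.5 and 42.0 CPM in the respective sections. The adenoma groups did not overlap, and even the AOM/DSS section was above every ApcMin/+ adenoma. The difference was 1.09 ± 0.18 (adjusted p = 0.0128), with an adjusted p of 0.0526 without ApcMin/+ adenoma 2. Pttg1 differed by 0.59 ± 0.16 (adjusted p = 0.0480), and with any 1 of the 6 adenomas left out it was no longer called (adjusted p 0.0637 to 0.129).

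Foxm1 (0.55 ± 0.21, adjusted p = 0.109), Nek2 (0.49 ± 0.19, adjusted p = 0.111) and Melk (−0.48 ± 0.19, adjusted p = 0.118) came next and did not pass. All 3 AOM/DSS adenomas lay above all 3 ApcMin/+ adenomas for 7 genes, Cdc25b, Nek2, Cenpe, Kif23, Kif4, Pttg1 and Mybl2, and for 22.4% of all genes tested. Melk alone had them all below, as did 20.6% of all genes tested. These shares of the 45 genes lie under the background. Without ApcMin/+ adenoma 3, 4 of the 45 genes were called lower in AOM/DSS adenomas, as were 935 of the 17154 genes tested in that run.

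An additive fit with 1 tissue term for both models gave a weighted average of the 2 changes, called the shared change here. A call in it does not show that a gene changed in each model. The shared change was positive for 44 of the 45 genes, with 31 called higher (18.3% of all genes tested were) and none called lower (15.8% of all genes tested were). The median was 1.04 (2.06-fold) against 0.07 for all genes tested. Mybl2 had the largest value, 2.08 ± 0.33 (4.23-fold, adjusted p = 0.00653), and was the one gene whose shared call held in every alternative run for this fit. Bub1 (1.68 ± 0.31, adjusted p = 0.00886), Top2a (1.57 ± 0.32, adjusted p = 0.0113), Plk4 (1.56 ± 0.36, adjusted p = 0.0160), Mad2l1 (1.51 ± 0.34, adjusted p = 0.0146) and Kif20a (1.43 ± 0.26, adjusted p = 0.00831) followed. Checkpoint, chromosome and transcription genes were all called (5, 2 and 2 genes), as were 7 of 8 motor, spindle and cytokinesis genes and 6 of 9 centromere and kinetochore genes.

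The 14 genes without a shared call included several central ones. Cdk1 had 1.08 ± 0.38 (adjusted p = 0.0601), while Ccnb1, also at 1.08 but with a smaller error of 0.34, passed (adjusted p = 0.0415). Birc5 had 0.80 ± 0.31 (adjusted p = 0.0829). None of the 4 separation and exit genes passed, and Cdc20 had 0.90 ± 0.33 (adjusted p = 0.0728). Melk (0.68 ± 0.29, adjusted p = 0.106) and Spc24 (0.43 ± 0.28, adjusted p = 0.264) lay furthest from the threshold. This fit leaned on the ApcMin/+ section: without it the median of the 45 genes was 0.56, against 0.14 for all genes tested. Without the AOM/DSS section the median of the 45 genes was 1.68, against 0.03 for all genes tested. All 6 adenomas lay above both sections for 28 of the 45 genes, and 20.1% of all genes tested did so.

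Single adenomas differed within the ApcMin/+ group. The median log2 ratio of the 45 genes over the section was 1.82 in adenoma 1, 1.84 in adenoma 2 and 1.24 in adenoma 3. Adenoma 3 was the lowest of the 3 for 43 of the 45 genes, against 36.3% of all genes tested. The AOM/DSS adenomas gave 0.56, 0.63 and 0.58. The median coefficient of variation of the 45 genes was 22.6% over ApcMin/+ adenomas and 8.20% over AOM/DSS adenomas, while over all genes tested it was 15.8% and 17.2%. Plk4 was an exception, with 19.7, 16.4 and 20.4 CPM in the ApcMin/+ adenomas.

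**Figure D4:**
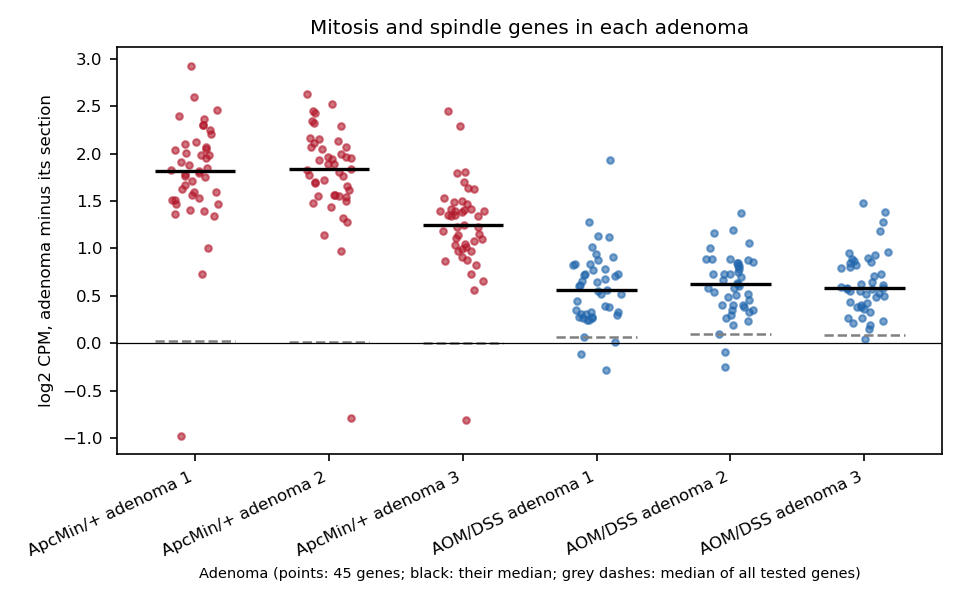
Log2 CPM ratio of each adenoma over the section of its model (y axis) for the 45 genes (points) in each of the 6 adenomas (x axis), with a line at the median. Adenoma 3 of ApcMin/+ sits at a median of 1.24, under adenomas 1 and 2, and the 3 AOM/DSS adenomas sit near 0.6.

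Other genes of the same machinery were counted from lists made by function, though with earlier results of these data known. Of 88 such genes, all tested, 43 were higher and none lower in ApcMin/+ adenomas (median 1.19; 10.1% and 6.35% of all genes tested), and none passed in AOM/DSS (median 0.51). The 43 became 5 without ApcMin/+ adenoma 1, 3 without ApcMin/+ adenoma 2, 57 without ApcMin/+ adenoma 3, and 23 without AOM/DSS adenoma 1 or 3. Over all genes tested the higher calls in those runs were 339, 319, 2179, 1127 and 1074, against 1731 with all 8 libraries. The AOM/DSS count became 14 higher and 1 lower without ApcMin/+ adenoma 3, when 800 and 1255 of 17154 genes tested were. The shared fit called 55 higher and 2 lower (18.3% and 15.8% of all genes tested). Its median over the 88 genes was 0.83, and 0.51 without the ApcMin/+ section. The counts by list below come from all 8 libraries. Each ApcMin/+ count fell without ApcMin/+ adenoma 1 or 2, as did the count over all genes tested. Of 16 spindle and motor genes outside the 45, 13 rose in ApcMin/+ adenomas, and Gtse1, a microtubule-binding protein of G2, led them with 2.52 ± 0.31 (adjusted p = 0.0117). Its shared change was 1.68, against 0.43 ± 0.13 for Numa1 (adjusted p = 0.0363), which anchors spindle poles. Of 15 condensin and cohesin genes 8 rose in ApcMin/+ adenomas. Ncaph, a condensin I subunit, had the highest shared change (1.47 ± 0.27, adjusted p = 0.00869) and Ncaph2 of condensin II the lowest (0.18 ± 0.11, adjusted p = 0.236).

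Of 23 further centromere and kinetochore genes 10 rose in ApcMin/+ adenomas, and shared changes ran from 1.55 for Ska1, which holds kinetochores on microtubules, to 0.17 for Hjurp, the chaperone of CENP-A. Hjurp was lower in AOM/DSS than in ApcMin/+ adenomas by −0.79 ± 0.14 (adjusted p = 0.0148). Of 7 further checkpoint genes 5 rose. Zwilch of the RZZ complex had a shared change of 1.57 ± 0.33 (adjusted p = 0.0124), and Mad2l1bp, which takes MAD2 off its target, fell by 0.56 ± 0.14 (adjusted p = 0.0203). Of 4 cytokinesis genes 3 rose, and shared values ran from 1.51 for Ect2 to 0.48 for Cit (adjusted p = 0.541). Of 9 other entry genes 2 rose, with shared values from 1.5 for Cks1b to 0.17 for Gmnn. Pkmyt1, which inhibits CDK1, was higher in AOM/DSS than in ApcMin/+ adenomas (1.19 ± 0.20, adjusted p = 0.0128).

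Of 14 genes of the anaphase-promoting complex and its partners 2 rose in ApcMin/+ adenomas, near the 10.1% of all genes tested that did, and none did without ApcMin/+ adenoma 1 or 2 or AOM/DSS adenoma 1 or 3. Their median was 0.34. Ube2s, which extends ubiquitin chains, had the highest shared value (0.68 ± 0.24, adjusted p = 0.0578), and the subunit Anapc13 fell by 0.51 ± 0.12 (adjusted p = 0.0152). Of 11 genes of the DREAM and MuvB complexes 3 rose in ApcMin/+ adenomas, at a median of 0.18, and none did without ApcMin/+ adenoma 1 or 2. Lin9, a MuvB subunit, had a shared change of 1.08 ± 0.24 (adjusted p = 0.0151) and Rbl2, p130, a value of −0.28 ± 0.18 (adjusted p = 0.274).

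Of 23 genes of G1 and S phase 18 rose in ApcMin/+ adenomas (median 1.48), and 6 rose in AOM/DSS adenomas (median 1.00), against 2.38% of all genes tested. The 6 were not stable, and neither were the higher calls over all genes tested (409 with all 8 libraries). None of the list passed without ApcMin/+ adenoma 1 or 2 or without AOM/DSS adenoma 1 or 3. In those runs 50, 7, 0 and 9 of all genes tested were called higher. Without AOM/DSS adenoma 2, 1 of the list passed (172 of all genes tested), and without ApcMin/+ adenoma 3, 9 passed (800). The 18 in ApcMin/+ became 5 without ApcMin/+ adenoma 1 and 7 without ApcMin/+ adenoma 2, while over all genes tested 1731 became 339 and 319. The 6 genes were Ccnd1, cyclin D1 (1.33 ± 0.25), the replicative helicase genes Mcm2, Mcm3, Mcm4 and Mcm7 (1.28, 1.24, 1.24 and 1.04), and Rrm2 of ribonucleotide reductase (1.57 ± 0.33), with adjusted p from 0.0340 to 0.0488. Whether the G1 and S genes and the mitosis genes differ in their response was not tested. Rrm2 had the highest shared change, 1.95 ± 0.28 (adjusted p = 0.00592), and Ccnd3, cyclin D3, fell by 0.56 ± 0.14 (adjusted p = 0.0184).

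The pieces were bulk tissue, so fewer cells of a type and less RNA per cell cannot be told apart. Markers of colon epithelium (11 of 11 detected in every library) summed to 15729 CPM in the ApcMin/+ section and 6827, 8390 and 10793 CPM in its adenomas, and to 15685 CPM in the AOM/DSS section and 10516, 8942 and 9309 CPM in those adenomas. The sum was high in all 8 libraries and lower in adenomas, and the change was below 0 for 10 of the 11 in each model. By edgeR 2 of the 11 were called lower in ApcMin/+ adenomas, against 6.35% of all genes tested. In AOM/DSS adenomas 0 were, against 2.63%. The 11 markers did not move alike. Lgals4 had 4319 CPM in the ApcMin/+ section and a mean of 1064 CPM in its adenomas. Epcam had 1754 CPM in that section and 1420, 1778 and 1552 CPM in the adenomas. Krt18 had 386 CPM in the ApcMin/+ section and 610.4, 775 and 583 CPM in its adenomas. Smooth muscle markers (9 of 9 detected) summed to 6208 and 8906 CPM in the ApcMin/+ and AOM/DSS sections, to 553, 602 and 1774 CPM in ApcMin/+ adenomas and to 443, 372 and 231 CPM in AOM/DSS adenomas. Sections therefore held far more muscle RNA than adenomas, and ApcMin/+ adenoma 3, the adenoma lowest in mitosis genes, held the most among adenomas. The AOM/DSS section, the higher of the 2 sections in mitosis genes, was also the higher in muscle markers.

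Immune markers moved too. The 8 B cell markers summed to 91.5 CPM in the ApcMin/+ section and to between 4.12 and 12.3 CPM in its adenomas. They reached 70.2 CPM in the AOM/DSS section and 52.7, 454 and 46.6 CPM in its adenomas. The sum of the 45 mitosis genes was 2391, 2547 and 2543 CPM in those same 3 adenomas. Adenoma 2, far the highest in B cell markers, was nearly level with adenoma 3 in the mitosis sum. The 7 T cell markers ran from 16.9 to 30.9 CPM over ApcMin/+ libraries and from 21.6 to 98.8 CPM over AOM/DSS libraries, and the 7 myeloid markers from 413 CPM in the AOM/DSS section to 1530 CPM in AOM/DSS adenoma 2. Fibroblast markers (6 genes) summed to 3329 CPM in the ApcMin/+ section and 1593 CPM in the AOM/DSS section. The part of these cell types in the results was not tested.

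**Figure D5:**
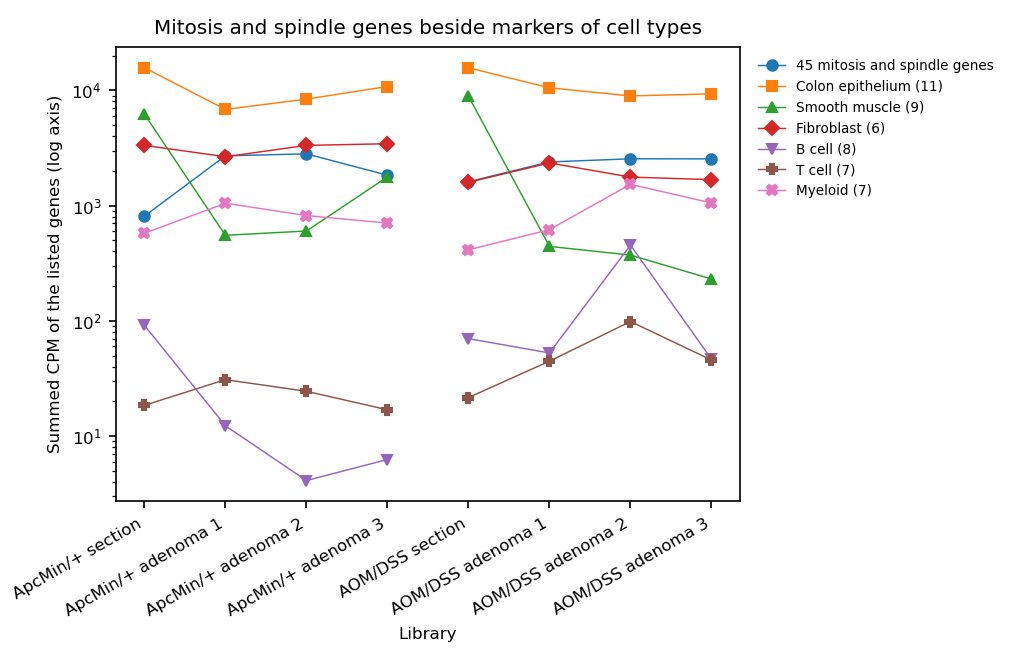
Summed CPM (y axis, log scale) of the 45 mitosis and spindle genes and of marker lists for 6 cell types in each of the 8 libraries (x axis). Smooth muscle markers drop from 6208 and 8906 CPM in the sections to 231 to 1774 CPM in adenomas, while the 45 genes rise from 811 CPM in the ApcMin/+ section to between 1834 and 2812 CPM in its adenomas.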

How the data were processed

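RNA from 8 pieces of mouse colon was sequenced as single reads. The authors deposited estimated counts per gene and FPKM values, per the file headers, made on the mm9 genome build, per the submitters' processing notes. Not given in the sources used here are the aligner, counter, annotation and use of strand; without strand, reads of overlapping and antisense genes cannot be told apart. The lowest deposited value was exactly 1 in every library in both tables, so 1 was subtracted and counts were rounded. The authors' deposited ratio table was not used.

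Counts were tested with edgeR 4.0.16 in R 4.3.3 (TMM, filter by expression with minimum count 10 and total 15, quasi-likelihood test, Benjamini-Hochberg adjustment over 17218 genes, threshold 0.05), which gave all adjusted p-values with no other tool named. All 8 libraries entered, with a mean for each of 4 groups (4 residual degrees of freedom) or with model and tissue terms (5), so each lone section was assumed to vary like the adenomas. SE values are the log2 fold change over the root of F. Alternatives used limma 3.58.1 on log2(FPKM + 0.1) and log2(FPKM + 1), DESeq2 1.42.0, other scalings, no filter, fewer libraries and a replicate block. The code was checked on simulated counts. Depth was 18156741 to 22719895 counts, and 3 counts equal 0.128 to 0.172 CPM.

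The 45 genes and all lists were chosen with earlier results of these data known. Genes named with full values were, in each role, the one with the highest FPKM and those with the highest and lowest shared change, 8 set genes (Mki67, Top2a, Cdk1, Ccnb1, Cdc20, Birc5, Foxm1, Mybl2), those called lower, up to 5 with the smallest p between models, and in other lists the highest and lowest shared change. Others are named by role with their change alone or after their values were seen. No 2 libraries were duplicates.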

Additional observations from a re-analysis of the deposited data

How the results depend on the processing

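With 1 section a model and 3 adenomas, calls moved far more than sizes. In ApcMin/+ adenomas the count called higher ranged from 4 to 44 when 1 adenoma was left out, and the count called lower from 0 to 1. It was 8 higher and 0 lower with the model's 4 libraries alone, when 747 and 204 of the 16345 genes tested were. The count of the 45 called lower was 0 with no filter and with limma at either pseudocount. In AOM/DSS adenomas the count called higher was 8 with DESeq2, 1 with no filter, with limma at either pseudocount and with the counts as deposited, and 0 to 11 with 1 adenoma left out. Over all genes tested the higher calls in those runs were 1438 with DESeq2, 409 with no filter, 442 and 357 with limma and 497 as deposited. They were 0 to 800 with 1 adenoma left out. The median of the 45 genes in AOM/DSS was 0.50 with DESeq2 size factors or DESeq2's test, 0.52 with upper quartile scaling, 0.63 and 0.62 with limma at pseudocounts 0.1 and 1, 0.46 with the 4 libraries alone and 0.56 to 0.63 with 1 adenoma left out. Between adenomas the count higher was 1 with upper quartile scaling, no filter or limma, and 0 to 1 with 1 adenoma left out, when 0 to 4 were lower. That median was 0.0935 and 0.0912 with limma at pseudocounts 0.1 and 1 and −0.20 to 0.12 with 1 adenoma left out, so its sign was not fixed. For the shared change 1 to 43 were higher and 0 to 1 lower with 1 adenoma or section left out (the sections were added after the data were seen), at medians of 0.56 to 1.68, and DESeq2 called 1 lower. DESeq2 called 1 lower in the difference of changes. Single values that changed sign were Spc24 and Pttg1 in AOM/DSS under limma (Spc24 0.0774 and 0.0751, Pttg1 0.130 and 0.128 at pseudocounts 0.1 and 1) and Spc24 in the shared change (−0.0518 without the ApcMin/+ section, 1.03 without the AOM/DSS section). Same-numbered adenomas did not deviate together (r −0.11, −0.32 and −0.28), and differently numbered ones had r of −0.00882 to 0.258. With 3 adenomas a group, such values cannot settle whether the numbers pair samples. With a replicate block, 0 of the 45 genes were called higher and 0 lower in ApcMin/+, 0 in AOM/DSS, 1 between adenomas, 19 shared and 0 in the difference. Over all 17218 genes tested that run called 57 higher and 15 lower in ApcMin/+ and 1 in AOM/DSS. It called 177 higher and 129 lower between adenomas, 1682 higher and 1765 lower in the shared change, and 0 in the difference. On FPKM at pseudocounts 0.1 and 1 the median over all genes was 0.29 and 0.21 in ApcMin/+, 0.23 and 0.18 in AOM/DSS and 0.26 and 0.20 in the shared fit; 83.8% and 76.0% of ApcMin/+ calls were higher ones (edgeR 61.3%), 64.9% and 49.7% of AOM/DSS calls (47.4%) and 70.6% and 68.4% of shared calls (53.6%). Over all alternatives the genes called numbered 72 to 4419 in ApcMin/+ (2824 as reported), 0 to 2895 in AOM/DSS (862), 306 to 4327 between adenomas (3122), 880 to 6608 shared (5871) and 0 to 180 in the difference (0). The cause of these changes was not tested.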
